A study of Mus musculus with 7 samples.

Results

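The transcription factor genes Nr4a2, Pitx3, Foxa1, Foxa2, Gata2, Gata3, Phox2a, Isl1 and Hand2, which set midbrain dopaminergic or sympathetic identity, were followed in MN9D cells. All probe sets annotated to these 9 genes were taken, which gave 12 of the 22626 probe sets tested. Nr4a2, Gata2 and Isl1 had 2 probe sets each and the other 6 genes had 1. MN9D is a mouse hybrid line, the product of a fusion between embryonic ventral midbrain cells and a neuroblastoma line, so that it joins a midbrain and a sympathetic tumour parent. RNA came from 4 samples labelled as overexpressing both the alpha and the beta chain of hemoglobin and from 3 samples carrying an empty vector, each on its own Affymetrix mouse 430A 2.0 array. A further control array, which failed quality assessment per the design text, was not analysed here. The labels give no promoter, clone, passage or culture for either group, so the p-values measure only how these arrays vary, and that variation may be technical. Per the design text, the comparison asks about biological effects of expressing globin.

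Values are the deposited RMA signals on the log2 scale, and each difference is globin-labelled minus empty vector on that scale. A probe set was called changed at a limma adjusted p under 0.05. Array medians lay between 8.90 and 8.94. The labels were checked on the globins. The 3 probe sets shared by Hba-a1 and Hba-a2 differed by 35.8-fold, 57.4-fold and 142-fold, whereas the beta-globin probe sets differed by 1.26-fold at most. The beta-globin probe set with 1.26-fold, of Hbb-b2, was called higher without overlap of the groups (limma adjusted p = 0.00558), and the other beta-globin probe sets did not pass. The probe sets of Hba-a2 alone and of Hba-a1 alone did not pass either, with differences of -0.03 and 0.03. A probe set that did not pass therefore does not show that its chain was absent. Since these probe sets did not settle the beta part of the label, the arrays are called globin-labelled throughout. Arrays of a group correlated at 0.9985 or above over all probe sets and arrays of different groups at 0.9917 or below. The signal at the 3' minus the 5' end of pyruvate carboxylase was 0.01 ± 0.06 in the globin-labelled arrays and -0.32 ± 0.08 in the empty vector arrays (SD, n = 4 and n = 3), with no array in common range (exact permutation test, two-sided, p = 0.0286, the smallest that 35 splits allow, and 0.143 after adjustment over 5 transcripts). For the other 4 transcripts with such controls the groups differed by 0.10 or less. The part of RNA quality in the results was not tested.

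In the embryonic midbrain, the forkhead proteins FOXA1 and FOXA2 open chromatin and help to specify dopaminergic precursors, the nuclear receptor NR4A2 then switches on the genes of dopamine synthesis and transport, and the homeodomain protein PITX3 acts with it in maturing neurons. In sympathetic precursors of the neural crest, bone morphogenetic proteins induce a network that includes the homeodomain protein PHOX2A, the basic helix-loop-helix protein HAND2, the zinc finger proteins GATA2 and GATA3 and the LIM-homeodomain protein ISL1. GATA2 also acts in blood stem cells and in midbrain GABAergic neurons, and GATA3 in T cells. Tyrosine hydroxylase, encoded by Th, is a product of both programs, whereas dopamine beta-hydroxylase, encoded by Dbh, belongs to the noradrenergic one.

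The factors did not move as a block. Foxa1, both probe sets of Gata2, Gata3 and probe set 2 of Nr4a2 were lower in the globin-labelled arrays, by 1.21-fold to 1.53-fold. Phox2a was 1.12-fold higher, by a narrow margin, and its call was lost in 6 of the 7 fits that left out an array. Pitx3, Foxa2, Isl1 and Hand2 did not pass. In all, 5 of the 12 probe sets were called lower and 1 was called higher, against 21.2% lower and 18.3% higher among all 22626 probe sets. With 39.5% of all probe sets called in either direction, the 6 of 12 called here are close to what the whole array showed. At 6 of the 12 the arrays of the groups were fully separated, against 43.5% of all probe sets. The median difference of the 12 was -0.11, against 0.01 over all probe sets.

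**Figure D1:**
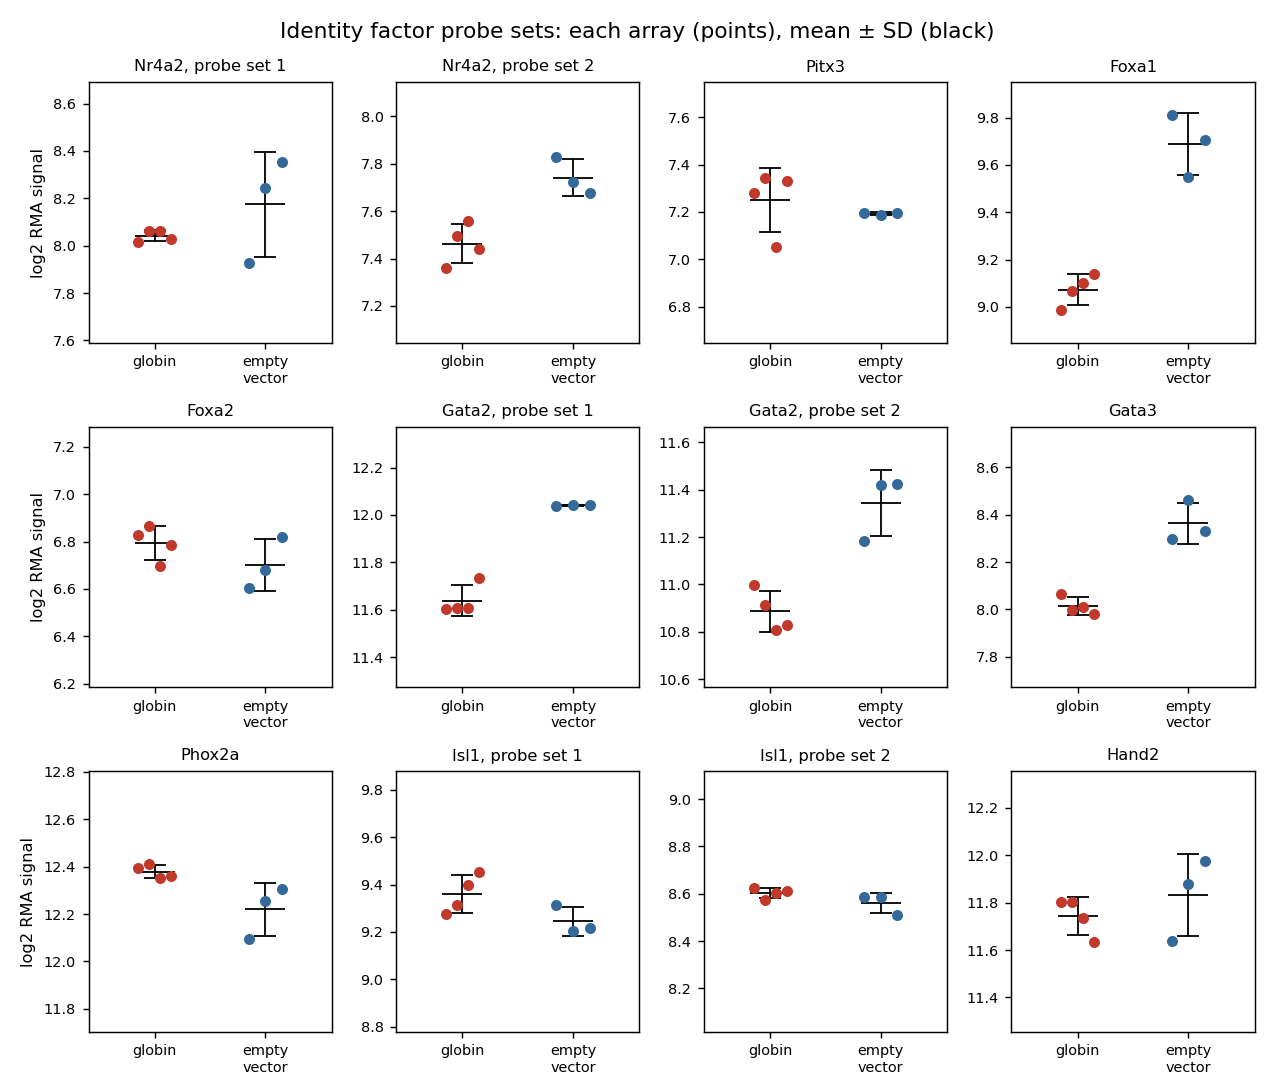
The log2 RMA signal (vertical axis, the same span of log2 units in every panel) is plotted for each of the 12 probe sets in the 4 globin-labelled arrays (red, left) and the 3 empty vector arrays (blue, right), with the mean and SD in black. For Foxa1, Gata2, Gata3 and probe set 2 of Nr4a2 every globin-labelled array lies below every empty vector array, and for Phox2a every one lies above, by 0.04 at its nearest.

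The sequences at annotated start sites of 4 of these genes are shown because Foxa1, Gata2 and Gata3 were called lower together. Hand2, of the same sympathetic network as Gata2 and Gata3, was not called and is shown beside them. RefSeq's promoter table for build GRCm38.p6 held 12 start sites for the 9 genes, each with 250 bases before the start and 50 after it. Each window was searched on both strands for AAAGGTCA, the monomer site of Nr4a2, for the GATA sites AGATAA and also TGATAA, which share all but the first letter, for the forkhead sites TGTTTAC and likewise TGTTTGC, for the E-box CATCTG of Hand2, for TAATCC as bound by Pitx proteins and for TAATGG as bound by Isl1. The window of Foxa1 is chr12:57546062-57546361, minus strand, and both starts of Gata2 lie on the plus strand, at chr6:88193641-88193940 and at chr6:88198414-88198713. The window of Gata3 is chr2:9878551-9878850, minus strand, and that of Hand2 is chr8:57320733-57321032, plus strand. The annotated gene spans are chr12:57540628-57548029 for Foxa1 and chr2:9857078-9887953 for Gata3. Their windows therefore lie inside the gene, at a start downstream of its 5′ end. The sequence before the 5′ end of Foxa1 and Gata3 was not searched. The printed sequences read 5′ to 3′ along each gene, with matches in capitals.
Foxa1: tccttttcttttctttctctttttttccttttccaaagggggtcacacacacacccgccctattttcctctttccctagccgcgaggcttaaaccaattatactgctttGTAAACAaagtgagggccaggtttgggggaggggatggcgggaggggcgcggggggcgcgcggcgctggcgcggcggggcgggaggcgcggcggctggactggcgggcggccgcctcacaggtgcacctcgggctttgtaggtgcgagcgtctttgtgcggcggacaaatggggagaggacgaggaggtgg
Gata2, upstream start: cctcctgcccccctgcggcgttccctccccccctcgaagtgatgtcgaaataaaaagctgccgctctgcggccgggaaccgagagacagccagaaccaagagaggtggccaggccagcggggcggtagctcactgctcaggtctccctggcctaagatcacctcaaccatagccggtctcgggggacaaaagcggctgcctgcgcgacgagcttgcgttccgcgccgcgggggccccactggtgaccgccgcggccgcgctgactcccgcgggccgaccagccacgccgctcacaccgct
Gata2, downstream start: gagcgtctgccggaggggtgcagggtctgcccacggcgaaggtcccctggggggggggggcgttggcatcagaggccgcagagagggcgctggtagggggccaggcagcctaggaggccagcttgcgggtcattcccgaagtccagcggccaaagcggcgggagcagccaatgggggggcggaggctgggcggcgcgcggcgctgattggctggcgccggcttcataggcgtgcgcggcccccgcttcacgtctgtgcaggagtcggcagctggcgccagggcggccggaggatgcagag
Gata3: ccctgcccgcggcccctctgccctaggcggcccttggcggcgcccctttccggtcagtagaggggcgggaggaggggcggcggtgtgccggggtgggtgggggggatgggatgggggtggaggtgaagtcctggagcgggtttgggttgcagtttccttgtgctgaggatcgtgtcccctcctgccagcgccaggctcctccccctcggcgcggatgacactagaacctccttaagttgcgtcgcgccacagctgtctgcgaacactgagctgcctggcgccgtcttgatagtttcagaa
Hand2: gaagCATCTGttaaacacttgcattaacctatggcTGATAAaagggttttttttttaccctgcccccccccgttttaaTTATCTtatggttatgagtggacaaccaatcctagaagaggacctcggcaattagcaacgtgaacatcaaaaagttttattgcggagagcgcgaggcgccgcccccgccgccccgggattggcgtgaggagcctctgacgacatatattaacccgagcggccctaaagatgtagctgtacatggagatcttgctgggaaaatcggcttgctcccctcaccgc

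Foxa1 carries a match to a forkhead site, TGTTTAC on the opposite strand, which begins at position -141 from the start. Of the 32544 distinct promoter windows of the table, 3.66% hold that site. The windows of Gata2 and Gata3, with 69.3%, 73.7% and 67.3% G and C, hold no match to any of the 8 motifs. The share of all windows that hold none of the 8 was not counted, so this absence sets these genes apart from no others. Hand2, with 50.3% G and C, holds CATCTG at -246, TGATAA at -215 and AGATAA on the opposite strand at -172, sites that 17.1%, 8.91% and 11.2% of all windows hold. Of the members not printed, Isl1 holds AGATAA and also TGATAA and the Pitx site, and Pitx3 holds the E-box CATCTG at -151. Of the 3 starts of Foxa2, 1 holds AGATAA at -183, 1 the Isl1 site at -218 and 1 no match. The Pitx site is held by 7.06% of all windows and the Isl1 site by 7.69%. The windows of Phox2a and Nr4a2 hold no match. These are matches of letters in a short window, and binding was not measured.

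Among the midbrain factors, Foxa1, the forkhead gene that also acts in endoderm and breast epithelium, had the largest difference of the 12 probe sets. Its signal (probe set 1418496_at) was 8.99, 9.07, 9.10 and 9.14 in the globin-labelled arrays, against 9.81, 9.55 and 9.71 in the empty vector arrays. The groups were separated by 0.41, more than the whole range within either. The difference was -0.61 ± 0.07 (limma standard error, n = 4 and n = 3), with a 95% confidence interval from -0.76 to -0.47 and a 1.53-fold lower signal (limma adjusted p = 8.35e-05). Over all probe sets, 4.53% had a larger difference in either direction. Without any 1 array the difference stayed between -0.69 and -0.55 and the call held.

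Foxa2, the paralog that marks the floor plate and midbrain precursors, did not follow. Its signal was 6.83, 6.87, 6.70 and 6.78 in the globin-labelled arrays and 6.60, 6.68 and 6.82 in the empty vector arrays, so that the groups overlapped. The difference was 0.09 ± 0.06 (95% confidence interval -0.05 to 0.23, limma adjusted p = 0.268). Its mean signal stood at the 24.4th percentile of the globin-labelled arrays and the 23.7th of the empty vector arrays, and background was not measured. Without 1 array the difference ran from 0.04 to 0.15 and did not pass in any of the 7 fits. Within each array, the signal of Foxa1 minus that of Foxa2 was 2.28 ± 0.12 in the globin-labelled arrays and 2.99 ± 0.19 in the empty vector arrays (SD, n = 4 and n = 3). That contrast differed by -0.71 between the groups, which did not overlap (exact permutation test, two-sided, p = 0.0286, and 0.143 after adjustment over 5 such pairs, which is the smallest a lone pair could reach). The 5 pairs were those of 2 probe sets of a member gene or of 2 members of a family, and they were set after the values were seen.

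Nr4a2, the orphan nuclear receptor on which midbrain dopamine neurons depend, gave different calls on its 2 probe sets. Probe set 2 (1450750_a_at) read 7.36, 7.50, 7.56 and 7.44 in the globin-labelled arrays, against 7.83, 7.72 and 7.68 in the empty vector arrays, and the groups did not overlap. It fell by 0.28 ± 0.06, or 1.21-fold (95% confidence interval -0.41 to -0.15, limma adjusted p = 0.00393). Probe set 1 (1450749_a_at), the brighter of the pair, read 8.02, 8.06, 8.06 and 8.03 in the globin-labelled arrays, against 7.93, 8.24 and 8.35 in the empty vector arrays. Here empty vector array 1 lay below all 4 globin-labelled arrays while the other two lay above them. Its difference was -0.13 ± 0.09 (95% confidence interval -0.33 to 0.06, limma adjusted p = 0.267). Without empty vector array 1 it was -0.26 and passed (limma adjusted p = 0.00422), and over the 7 fits that leave out an array it ran from -0.26 to -0.04. The probe sets' difference within an array was -0.58 ± 0.06 in the globin-labelled arrays and -0.43 ± 0.30 in the empty vector arrays (two-sided exact permutation p = 0.457), so that they were not shown to change unequally.

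Pitx3, the homeobox gene of maturing midbrain dopamine neurons and of the lens, did not pass. It read 7.28, 7.34, 7.05 and 7.33 in the globin-labelled arrays, against 7.20, 7.19 and 7.20 in the empty vector arrays. The empty vector arrays fell inside the range of the globin-labelled ones, whose array 3 was the low one. The difference was 0.06 ± 0.07, and the 95% confidence interval ran from -0.10 to 0.21 (limma adjusted p = 0.551). Without globin-labelled array 3 the difference was 0.12 (limma adjusted p = 0.0530), and without globin-labelled array 2 it was 0.03. In either direction, a change of the size seen for Foxa1 lies outside the interval of the full fit.

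Among the sympathetic factors the GATA genes fell together. Gata2 fell on both of its probe sets. Probe set 1 (1450333_a_at) read 11.60, 11.61, 11.61 and 11.73 in the globin-labelled arrays, against 12.04, 12.04 and 12.04 in the empty vector arrays. The 3 empty vector arrays lay within 0.01 of each other and at least 0.30 above every globin-labelled array. The difference was -0.40 ± 0.04, a 1.32-fold lower signal (limma adjusted p = 1.10e-04).

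Probe set 2 of Gata2 (1428816_a_at) read 11.00, 10.91, 10.81 and 10.83 in the globin-labelled arrays, against 11.18, 11.42 and 11.43 in the empty vector arrays. Every globin-labelled array was lower, and empty vector array 1 was again the nearest to them. The difference was -0.46 ± 0.07, or 1.37-fold (limma adjusted p = 8.48e-04). The contrast between these probe sets differed between the groups by 0.05 (two-sided exact permutation p = 0.60), less than its SD within either group.

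Gata3, which in sympathetic precursors acts beside Gata2 and is needed for Th and Dbh expression, read 8.07, 8.00, 8.01 and 7.98 in the globin-labelled arrays, against 8.30, 8.46 and 8.33 in the empty vector arrays. Each globin-labelled array lay below each empty vector array. It fell by 0.35 ± 0.05, or 1.27-fold (95% confidence interval -0.46 to -0.24, limma adjusted p = 4.52e-04). Gata3 minus Gata2 probe set 1 was -3.62 ± 0.09 in the globin-labelled arrays and -3.68 ± 0.09 in the empty vector arrays (SD, n = 4 and n = 3), a shift of 0.05 (two-sided exact permutation p = 0.486). An unequal change of these paralogs was thus not detected, in a design of 7 arrays.

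Phox2a, which binds the Dbh promoter, was the only member called higher. It read 12.39, 12.41, 12.35 and 12.36 in the globin-labelled arrays, against 12.09, 12.26 and 12.31 in the empty vector arrays. The groups did not overlap, but the lowest globin-labelled array exceeded the highest empty vector array by only 0.04. The difference was 0.16 ± 0.05 (95% confidence interval 0.04 to 0.28, limma adjusted p = 0.0420). Of the fits that left out an array, 6 lost the call, with adjusted p of up to 0.114 without empty vector array 1 (difference 0.10), and held only without empty vector array 3 (difference 0.20, limma adjusted p = 0.0229).

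Hand2, a partner of Phox2a and Gata3 in sympathetic neurons and a regulator of heart and limb, read 11.80, 11.80, 11.74 and 11.63 in the globin-labelled arrays, against 11.64, 11.88 and 11.98 in the empty vector arrays. Empty vector array 1 sat at the level of the lowest globin-labelled array and the other two above them all. The difference was -0.09 ± 0.08 (95% confidence interval -0.27 to 0.09, limma adjusted p = 0.408). Without empty vector array 1 it was -0.19 and passed (limma adjusted p = 0.0486), and without empty vector array 3 it was -0.02.

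Isl1, needed for sympathetic and motor neuron differentiation, did not pass on either probe set. Probe set 1 (1450723_at) read 9.28, 9.32, 9.40 and 9.45 in the globin-labelled arrays and 9.32, 9.20 and 9.22 in the empty vector arrays, a difference of 0.12 ± 0.05 (95% confidence interval -0.01 to 0.24, limma adjusted p = 0.120). Probe set 2 (1422720_at) read 8.62, 8.57, 8.60 and 8.61 in the globin-labelled arrays and 8.58, 8.58 and 8.51 in the empty vector arrays, a difference of 0.04 ± 0.04 (95% confidence interval -0.05 to 0.13, limma adjusted p = 0.427). In each case the groups overlapped, and the intervals leave room for a rise of at most 0.24 and a fall of at most 0.05. The probe sets' contrast within an array did not separate the groups either (two-sided exact permutation p = 0.229).

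**Figure D2:**
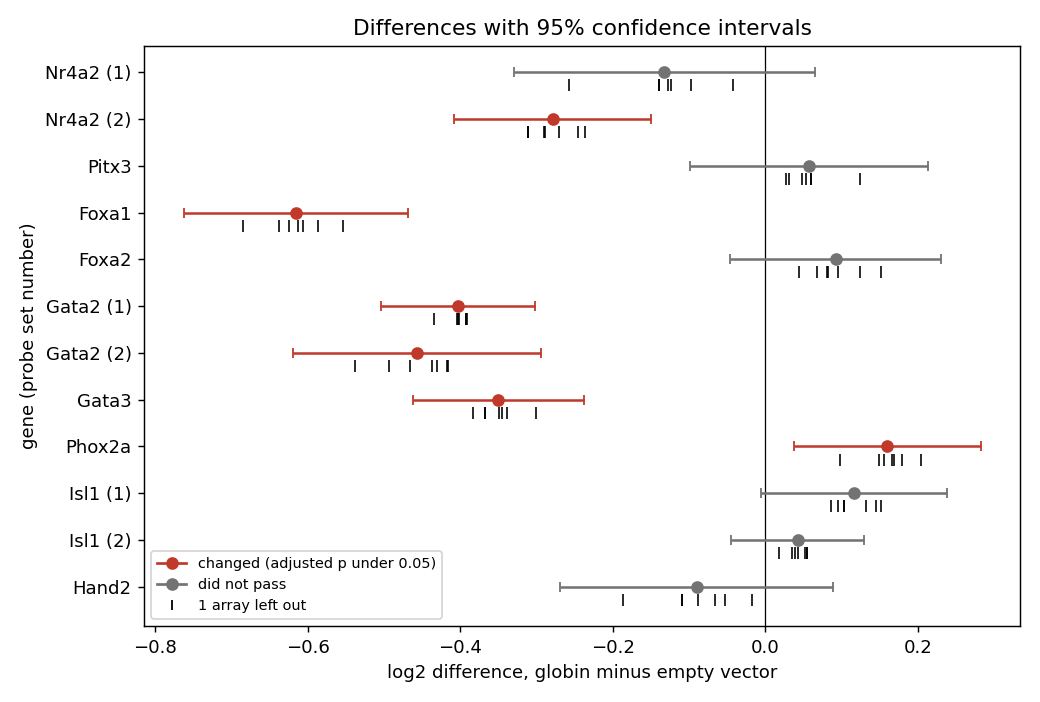
The log2 difference, globin-labelled minus empty vector (horizontal axis), is drawn with its 95% confidence interval for each of the 12 probe sets, red where it passed and grey where it did not. Black ticks below each bar mark the 7 fits that leave out an array, which for Foxa1 run from -0.69 to -0.55 and for Phox2a from 0.10 to 0.20.

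The genes around the factors also moved both ways. Lists of related genes were counted with 1 probe set per gene, the one with the highest mean, beside all 12393 genes, of which 40.7% were called (20.6% higher and 20.1% lower) with a median difference of 0.02. Of 15 other transcription factors of midbrain dopaminergic precursors and neurons, 3 rose and 3 fell, with a median of 0.06. The rise of Nr2f6, at 0.14 ± 0.05 (limma adjusted p = 0.0441), was called in only 2 of the 7 fits that left out an array. Neurog2, a proneural factor of midbrain precursors, read 7.58, 7.65, 7.41 and 7.45 in the globin-labelled arrays, against 6.49, 6.51 and 6.29 in the empty vector arrays. It rose by 1.09 ± 0.07, or 2.14-fold (limma adjusted p = 5.87e-06), on 1 probe set. Its signal was low, at the 20.6th percentile of the empty vector arrays and the 33.4th of the globin-labelled arrays. Ebf1, which acts in the migration and differentiation of neurons and in B cells, fell by 1.30 ± 0.12, and its other 2 probe sets fell too. The homeobox gene Pbx3 fell by 0.49 ± 0.04 and the chromatin organiser gene Satb1 rose by 0.55 ± 0.05 on its brightest probe set. The floor plate and isthmus factors Lmx1a, Lmx1b, En1 and Otx2 did not pass, with 0.08 ± 0.07, 0.06 ± 0.08, -0.01 ± 0.05 and -0.03 ± 0.07. En2 leaned higher without passing, at 0.20 ± 0.08 (limma adjusted p = 0.0850), and passed without globin-labelled array 2 (limma adjusted p = 0.0416). The probe sets of Lmx1a, En1, En2 and Otx2 were dim, with means below the 20th percentile of all probe sets.

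Of 13 other sympathetic transcription factors, 3 rose and 5 fell (median 0.04). Without empty vector array 3, 5 rose, Hand1 and Tfap2a being the added ones (limma adjusted p = 0.00961 and 0.0305). Tbx2, a T-box repressor, rose by 1.15 ± 0.08 to 9.12 in the globin-labelled arrays, against 7.97 in the empty vector arrays (2.22-fold, limma adjusted p = 9.24e-06). Eya1, a transcriptional cofactor and phosphatase of cranial ganglia, fell by 0.90 ± 0.07 to 7.49 in the globin-labelled arrays, against 8.39 in the empty vector arrays. Insm1, a zinc finger factor of sympathoadrenal precursors, read 10.97, 10.99, 10.80 and 10.97 in the globin-labelled arrays, against 11.59, 11.58 and 11.78 in the empty vector arrays, and fell by 0.72 ± 0.07 (limma adjusted p = 3.41e-05). The TALE homeobox gene Meis1 rose by 0.63 ± 0.05. The neural crest factors Tfap2a and Tfap2b did not pass with all arrays, with 0.09 ± 0.08 and 0.04 ± 0.06, and without empty vector array 3 the difference of Tfap2a was 0.19.

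Close relatives of the factors were measured for 10 genes. Of these, 3 rose and 0 fell by limma (median 0.14), with 0 lower even before adjustment at 0.05. Nr4a1, the immediate early relative of Nr4a2, rose by 0.29 ± 0.04 to 9.97 in the globin-labelled arrays, against 9.68 in the empty vector arrays (limma adjusted p = 7.61e-04). The calls of Pitx1 and Foxa3, at 0.17 ± 0.06 and 0.19 ± 0.06 (limma adjusted p = 0.0343 and 0.0415), were weak. That of Pitx1 held in 1 of the 7 fits that left out an array, without globin-labelled array 3, and that of Foxa3 in 2 of them, without globin-labelled array 2 or empty vector array 3. With these calls lost, 1 gene of the list was called higher. Gata1, Gata4, Gata5 and Gata6 did not pass, with 0.12 ± 0.06, -0.05 ± 0.04, -0.02 ± 0.04 and 0.14 ± 0.09.

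Partners and cofactors were called at the rate of the whole array, with 5 of 22 higher and 4 lower (median 0.04). The retinoid X receptors Rxra, Rxrb and Rxrg, with which NR4A2 pairs, did not pass, with 0.06 ± 0.04, 0.02 ± 0.04 and -0.00 ± 0.04. In blood precursors GATA factors work in a complex with TAL1, LMO2 and LDB1. Tal1 read 10.14, 10.06, 10.20 and 10.22 in the globin-labelled arrays, against 10.54, 10.70 and 10.56 in the empty vector arrays, and fell by 0.45 ± 0.06 (limma adjusted p = 2.15e-04). Lmo2 rose by 0.34 ± 0.06 and Ldb1, at 0.18 ± 0.08, did not pass except without globin-labelled array 4 (limma adjusted p = 0.0482). Lhx3, a LIM-homeodomain partner of ISL1 in motor neurons, rose by 0.38 ± 0.05 on 1 probe set and was at 0.04 ± 0.07 on the other. Tle1, a corepressor of the Groucho family, fell by 0.27 ± 0.04. Id2, an inhibitor of helix-loop-helix proteins, fell by 0.36 ± 0.05 on its brightest probe set, fell by 0.32 ± 0.10 on the next and rose by 0.45 ± 0.11 on the dimmest, so that its direction is uncertain.

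**Figure D3:**
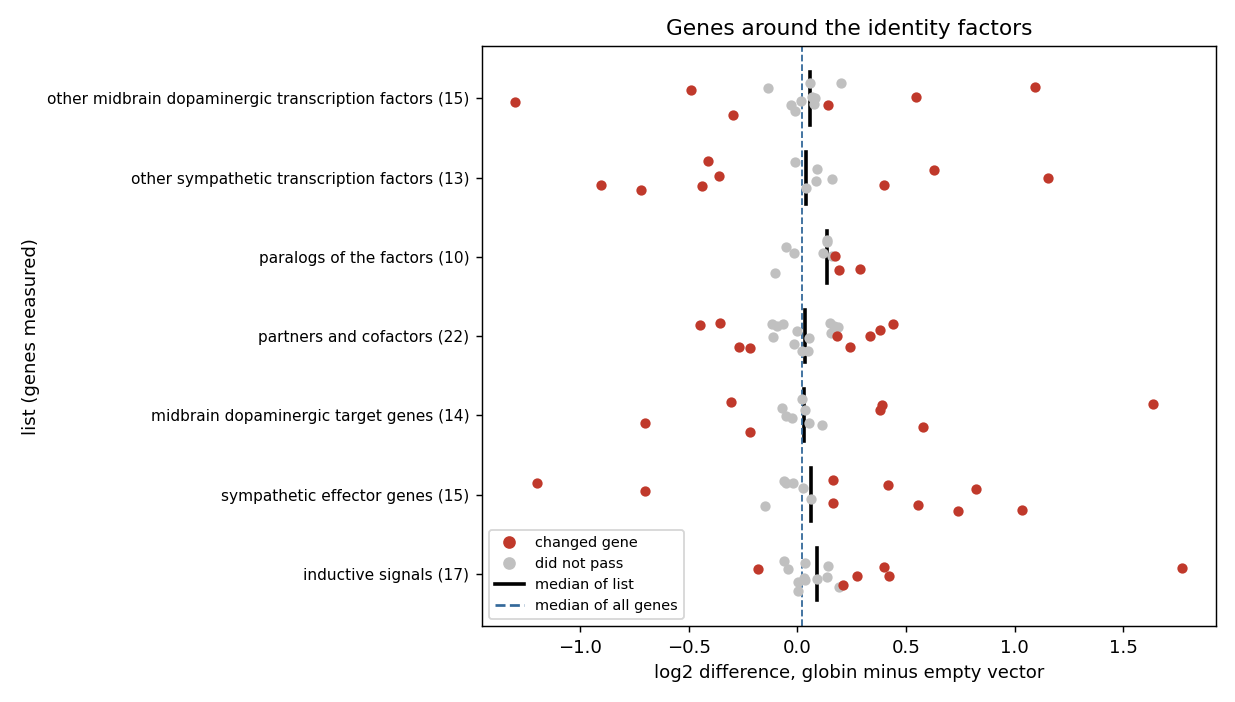
Each point is the log2 difference, globin-labelled minus empty vector (horizontal axis), of a gene in 1 of 7 lists, red where it passed and grey where it did not, with the list's median as a black bar and the median of all genes, 0.02, as a dashed line. The list medians lie between 0.03 and 0.14, and 6 of the 7 lists hold changed genes on both sides of 0, the exception being the paralogs. In the list of inductive signals the side below 0 rests on Acvr1 alone, whose call was lost without empty vector array 1 or 3.

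Known targets of the midbrain factors were split. Of 14 genes, 4 rose and 3 fell (median 0.03). Th, bound by NR4A2 and PITX3, read 11.11, 11.09, 11.00 and 11.12 in the globin-labelled arrays, against 11.68, 11.84 and 11.82 in the empty vector arrays, and fell by 0.70 ± 0.05, or 1.62-fold (limma adjusted p = 1.14e-05). Ret, the GDNF co-receptor, read 10.50, 10.38, 10.26 and 10.23 in the globin-labelled arrays, against 8.72, 8.78 and 8.61 in the empty vector arrays, and rose by 1.64 ± 0.07, or 3.11-fold. These are target genes that moved in opposite directions in the same arrays. Ptpru, a receptor phosphatase listed as an Nr4a2 target, rose by 0.39 ± 0.05, and Vip, a neuropeptide gene, rose by 0.58 ± 0.10 from a dim signal. Slc6a3, the dopamine transporter gene that depends on Nr4a2 in vivo, stood at the 19.5th percentile of the globin-labelled arrays and the 19.4th of the empty vector arrays and did not pass (0.04 ± 0.07). Aldh1a1, a PITX3 target in substantia nigra neurons, stood at the 3.02nd percentile of the globin-labelled arrays and the 2.28th of the empty vector arrays.

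Effector genes of the sympathetic neuron were called in 9 of 15 cases, 7 higher and 2 lower (median 0.06). The calls of Chga and Maoa, at 0.16 ± 0.05 each, held in 3 and in 4 of the 7 fits that left out an array. Without empty vector array 3, 5 genes of the list were called higher. Dbh, a direct target of PHOX2A, read 10.00, 9.89, 9.91 and 9.78 in the globin-labelled arrays, against 9.03, 9.17 and 9.26 in the empty vector arrays. It rose by 0.74 ± 0.07 (limma adjusted p = 3.27e-05), while Th, a gene of the same pathway, fell. Chrna3, a nicotinic receptor subunit of autonomic ganglia, rose by 1.03 ± 0.06, or 2.05-fold, on the probe set with the higher mean. Prph, the intermediate filament gene peripherin, rose by 0.82 ± 0.06. Stmn2, a microtubule regulator of growing axons, fell by 1.20 ± 0.06, or 2.29-fold. The vesicle gene Chgb and the noradrenaline transporter gene Slc6a2 did not pass, with -0.02 ± 0.04 and 0.02 ± 0.05.

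**Figure D4:**
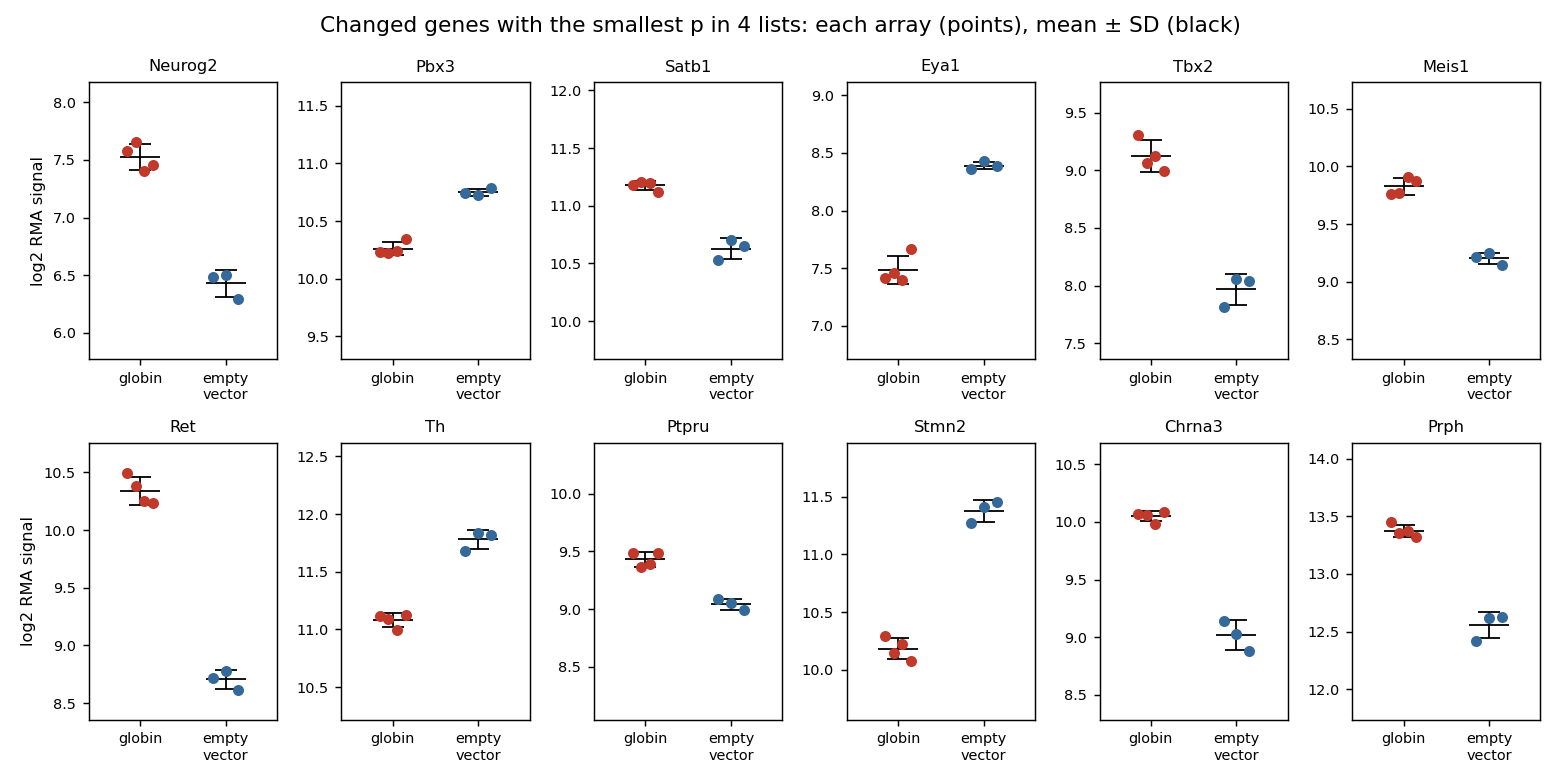
The log2 RMA signal (vertical axis, the same span in every panel) of the 3 changed genes with the smallest p in each of 4 lists is plotted for the 4 globin-labelled arrays (red, left) and the 3 empty vector arrays (blue, right), with mean and SD in black. The groups do not overlap in any of these 12 panels, of which Neurog2, Satb1, Tbx2, Meis1, Ret, Ptpru, Chrna3 and Prph are higher and Pbx3, Eya1, Th and Stmn2 lower in the globin-labelled arrays.

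Of 17 genes of the signals that induce these factors, 5 rose and 1 fell (median 0.09). Among the higher ones Wnt1, at 0.28 ± 0.08 (limma adjusted p = 0.0272), was called in 3 of the 7 fits that left out an array. The lower one was Acvr1, a type I receptor gene for bone morphogenetic proteins, at -0.18 ± 0.05 (limma adjusted p = 0.0174). Its call was lost without empty vector array 1 or without empty vector array 3, with adjusted p of up to 0.0624, and with the probe sets of each gene averaged 0 genes of the list were called lower. Bmp7, of the family that induces Phox2 and Hand2 genes in sympathetic precursors, rose by 1.77 ± 0.05 on its brightest probe set (3.41-fold, limma adjusted p = 1.66e-08). Bmpr1a, like Acvr1 a receptor gene for that family, rose by 0.42 ± 0.05 on its brightest probe set, and 4 of its 5 probe sets were called higher. The receptor genes Bmpr1a and Acvr1 thus moved in opposite directions. In the Sonic hedgehog pathway, which acts before the Foxa genes in the floor plate, the signal transducer gene Smo rose by 0.40 ± 0.05 and the receptor gene Ptch1 by 0.21 ± 0.05 on the brighter of its 2 probe sets. The ligand gene Shh did not pass (0.03 ± 0.06). Gli1, another gene of the pathway, did not pass either (0.13 ± 0.06), except without globin-labelled array 1 (limma adjusted p = 0.0202). The probe sets of Shh and Gli1 were dim, with means at the 13.9th and 18.3rd percentiles of all probe sets. They therefore do not settle whether signalling through the pathway changed.

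Signals closest in shape to those of the factors were looked up over the 7 arrays as a description. The Foxa1 signal was followed most closely by Slain2, a microtubule-binding protein gene, with a Pearson correlation of 0.999, then Lmbrd1, a lysosomal cobalamin transport gene, with 0.998, and Bmi1, a Polycomb gene, with 0.996. Their differences were -0.31 ± 0.05, -0.35 ± 0.05 and -0.21 ± 0.04. Of 20379 probe sets compared, 33 exceeded a correlation of 0.99 with Foxa1. For Phox2a the closest were Sdhb, a succinate dehydrogenase subunit gene, with 0.99, Nck2, an adaptor protein gene, with 0.989, and Noc4l, a nucleolar protein gene, with 0.986. Only 1 probe set exceeded 0.99 with Phox2a. Sdhb and Nck2 did not pass, at 0.07 ± 0.04 and 0.12 ± 0.05 (limma adjusted p = 0.185 and 0.0554). Noc4l was higher by 0.25 ± 0.07 (limma adjusted p = 0.0161). A correlation over the 7 arrays mixes the step between the groups with the spread within groups, so it does not show a shared change.

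Markers of the labelled cell type moved both ways, and Slc6a3 was dim in both groups as given above. Of 4 catecholaminergic markers 1 rose and 2 fell, Dbh in the first direction and Th and Ddc in the second, and the mean log2 level of the list lay between 9.28 and 9.33 in the globin-labelled arrays and between 9.24 and 9.39 in the empty vector arrays. Of 5 pan-neuronal markers 2 rose and 2 fell, with Tubb3 lower by 0.80 on the log2 scale and Snap25 higher by 0.40 ± 0.05. None of 5 astrocyte, 3 Schwann and neural crest glia, 4 microglia and 4 fibroblast markers was called by limma, and 0 of them had an unadjusted p under 0.05. Among them Aqp4, Slc1a3, Aif1, Itgam, Col1a1 and Col3a1 had means below the 20th percentile of all probe sets. Of 3 oligodendrocyte markers Mog was dim by the same measure, and Mbp fell by 0.70 ± 0.06 on its brightest probe set, though 1 of its 8 probe sets rose. Tph1, of 2 serotonergic markers, fell by 0.41 ± 0.10, and Slc18a3, of 2 cholinergic markers, rose by 0.41 ± 0.04. In bulk RNA fewer cells of a type and less RNA per cell cannot be told apart, and the part of cell mixture in the results was not tested.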

How the data were processed

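Per the labels' protocols, biotin-labelled RNA was made by 1 cycle of amplification. The values the authors deposited are log2 signals. RMA is named as their method per the submitters' processing notes, with no software version. RMA gives all arrays like distributions, which hides any shift common to most transcripts. Arrays carry no read depth, and their number limits the precision.

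From the 22690 probe sets, 64 array controls were removed. Genes were named from the platform's annotation, with 1 symbol for 20380 probe sets, several for 691 and none here for 1555. The fit used limma 3.58.1 in R 4.3.3 (lmFit, eBayes) with no term but group, two-sided, and Benjamini-Hochberg adjustment over 22626 probe sets and 9.10 total degrees of freedom, and it was tested on simulated data. Values after ± are limma's standard errors unless named as SD. Named genes were all 12 member probe sets, the globins, up to 4 called genes per list by smallest p, the genes most alike, and members with a textbook tie to a factor. Members and lists were chosen with earlier results of these data known. Alternatives were other array scalings, a filter on dim probe sets, trend and robust eBayes settings, leaving out arrays, averaging the probe sets of a gene, and the replicate number as a block.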

Additional observations from a re-analysis of the deposited data

Results flagged for a closer look

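In Gata2 probe set 1, globin-labelled array 4 stood apart from the other globin-labelled arrays, at 11.73 against 11.60 to 11.61. Its gap to the nearest array was 0.968 of the group's whole range, above Dixon's 95% critical value for 4 arrays. It was the nearest to the empty vector arrays, and without it the difference was -0.43 in place of -0.40. Chance flags about 1 in 20 such groups, and 12 probe sets were looked at. Groups of 3 arrays were not tested in this way.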

How the results depend on the processing

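Over 13 alternatives, each of the 12 probe sets kept its direction. Foxa1, both Gata2 probe sets, Gata3 and Nr4a2 probe set 2 were called lower in all 13, with ranges of -0.69 to -0.55, -0.44 to -0.39, -0.54 to -0.42, -0.38 to -0.30 and -0.31 to -0.23. Pitx3, Foxa2 and both Isl1 probe sets were called in none. The count of members called higher, 1 with all arrays, ran from 0 to 1 over the fits without 1 array, and the count called lower from 5 to 7, the 7 without empty vector array 1. With the replicate number as a block, which also left out globin-labelled array 4, 0 members were called higher and 5 lower, and 6337 probe sets were called in all, against 8031 for the same arrays without the block. Same-numbered arrays of the groups did not deviate together (correlations -0.36, -0.30 and -0.14), so the numbers were not taken to pair them. Leaving out both arrays with the lowest hybridisation controls (empty vector 1, globin-labelled 4), an alternative chosen after seeing the data, 0 were called higher (Phox2a 0.10, limma adjusted p = 0.127) and 6 lower. Over all probe sets, the fits without 1 array called 3556 to 3768 higher and 4151 to 4503 lower, against 4131 and 4800 with all arrays. Centring arrays on their medians gave 4359 higher and 4615 lower. Of 47 called genes in the lists, 36 were called in each of the 13 alternatives that kept their probe set. Vip was removed by the filter on dim probe sets, and averaging the probe sets of a gene was run for list counts only. The cause of these differences was not tested. Signal over background was not measured, which limits what can be said of dim probe sets.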

Other observations

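Empty vector array 1 held an end of the empty vector range for most of the factors. In a group of 3 arrays only 1 lies in the middle, so an end place is common for any array. The share over all probe sets was not counted. Empty vector array 1 was the lowest of the 3 for Nr4a2 probe set 1, Foxa2, both Gata2 probe sets, Gata3, Phox2a and Hand2, and the highest for Nr4a2 probe set 2, Foxa1 and Isl1 probe set 1. For Gata2 probe set 1 the margin was slight, at 12.038 against 12.042 and 12.041. The Nr4a2 probe sets thus put the same array at opposite ends, at 7.93 on probe set 1, where the other two read 8.24 and 8.35, and at 7.83 on probe set 2, where they read 7.72 and 7.68.

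Exact ties between arrays were common in the deposited values. At 5 of the 12 probe sets, Nr4a2 probe set 1, Pitx3, both Isl1 probe sets and Hand2, a pair of arrays carried the identical value, as did arrays at 36.3% of all 22626 probe sets, and at 1 probe set all 7 arrays were equal. The SD of Pitx3 was 0.136 in the globin-labelled arrays and 0.00636 in the empty vector arrays, where 2 of the 3 values were identical.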
